A study of Mus musculus with 15 samples.

Results

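The miRNAs mir-3962, mir-3966 and mir-3969 were examined in the LV of 5 wt, 5 AGAT-/- and 5 homoarginine-supplemented AGAT-/- mice (AGAT-/-hArg). They were chosen by name, as all rows of these precursors in the deposited counts, after earlier results had shown low or missing reads in the AGAT-/-hArg libraries. This gave 6 of 1836 rows, the 5p and the 3p arm of 3 of 918 precursors. Reads were found on 3 of these rows, mir-3962-3p, mir-3966-5p and mir-3969-5p, and the opposite arms were at 0 in all 15 libraries. The AGAT-/-hArg values are therefore a description of what chose the miRNAs, and the comparison of AGAT-/- with wt mice, which the choice did not use, was tested.

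Homoarginine and the precursor of creatine are both made by AGAT (arginine:glycine amidinotransferase). The labels call the groups AGAT wildtype, AGAT -/- and AGAT -/- plus homoarginine. All mice were littermates on a C57BL/6J background, the AGAT-/- and AGAT-/-hArg mice both lack AGAT by deletion of its gene, and the AGAT-/-hArg mice received homoarginine from implanted osmotic pumps for 4 weeks. The age of the mice is not given in the sources used here. According to the labels, lane 8 of the sequencer carried the 10 libraries of unsupplemented mice and lane 2 the 5 of supplemented mice. Supplementation and lane therefore cannot be told apart.

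MiRNAs are short RNAs cut from hairpin precursors. The mature strand is loaded into an Argonaute protein and pairs with messenger RNAs mainly through its seed, bases 2 to 8, which lowers the stability and translation of these messengers. In miRBase, miRNAs are numbered in order of registration, and high numbers belong to miRNAs that were found late, mostly by deep sequencing. Neighbouring numbers therefore do not by themselves mean shared sequence or function.

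The mature sequences are shown because each is a near copy of a better known miRNA. They were taken from RefSeq (GRCm38.p6), run 5′ to 3′, and have the seed in capitals.
mir-3962-3p: aGGUAGUAguuuguacauuu
mir-3966-5p: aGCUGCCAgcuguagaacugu
mir-3969-5p: cCCUAAAGuagaaaucacua
The 3 seeds differ from each other, and no other mature miRNA of the RefSeq set has any of them. RefSeq lists 1 mature strand for each of these hairpins, on the arm that held the reads here.

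In ungapped alignment, mir-3962-3p matched let-7g-5p, a member of the let-7 family of growth-restraining miRNAs, at 19 of 20 bases. Mir-3966-5p matched mir-22-3p, a miRNA known for its abundance in heart and skeletal muscle, at 19 of 21 bases. Mir-3969-5p matched mir-142a-5p, a miRNA of blood cells, at 17 of 19 bases. The aligned pairs are given with the differing bases in capitals.
mir-3962-3p: agguaguaguuuguacaUuu
let-7g-5p: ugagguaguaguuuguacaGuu
mir-3966-5p: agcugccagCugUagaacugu
mir-22-3p: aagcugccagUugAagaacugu
mir-3969-5p: ccCuaaaguagaaaUcacua
mir-142a-5p: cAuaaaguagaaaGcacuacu
Counted from the 5′ end of the miRNA studied here, with its own base first, the differences were U18G for let-7g-5p, C10U and U13A for mir-22-3p, and C3A and U15G for mir-142a-5p. In each pair the 5′ ends were shifted, by 2 bases for let-7g-5p and by 1 base for mir-22-3p and mir-142a-5p. The shift places the seed elsewhere along the shared letters, so that a near copy does not carry the same seed. Let-7i-5p also shared a run of 14 bases with mir-3962-3p and differed at 3 of 20 aligned bases. Among all 1679 mature miRNAs, 9.83% had another, non-identical miRNA within 2 differences over at least 18 bases, and 3.63% had it at a shifted 5′ end. The better known partners let-7g-5p, let-7i-5p, mir-22-3p and mir-142a-5p are listed at 0 in all 15 libraries. The paper, however, reports let-7i-5p as upregulated in AGAT-/- hearts, by sequencing and by qPCR. A listed 0 in the deposited counts is therefore not read here as absence from the heart. On the opposite arms, let-7g-3p held 24 reads in all, mir-142a-3p 4, let-7i-3p 3 and mir-22-5p 0. It was not tested how reads that match both members of a pair were assigned.

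The hairpins are given with the mature strand in capitals, since they differ in how well they fold.
mir-3962: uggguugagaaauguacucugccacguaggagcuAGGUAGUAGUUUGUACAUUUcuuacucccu
mir-3966: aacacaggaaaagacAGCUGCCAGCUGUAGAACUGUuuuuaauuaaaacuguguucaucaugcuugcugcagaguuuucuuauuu
mir-3969: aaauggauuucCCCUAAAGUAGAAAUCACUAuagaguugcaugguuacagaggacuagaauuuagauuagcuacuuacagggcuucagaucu
The mature strand of mir-3962 lies on the 3′ arm, and those of mir-3966 and mir-3969 lie on the 5′ arm. The computed folding energy was -26.8 kcal/mol for mir-3962, -19.7 kcal/mol for mir-3966 and -17.5 kcal/mol for mir-3969, with hairpins of 64, 85 and 92 bases. Per base, mir-3962 was close to the median of -0.41 kcal/mol over 1005 mouse hairpins. Mir-3966 and mir-3969 were among the weakest, as 2.09% and 0.398% of all hairpins had a weaker energy per base. These energies are computed from sequence alone and were not measured.

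**Figure D1:**
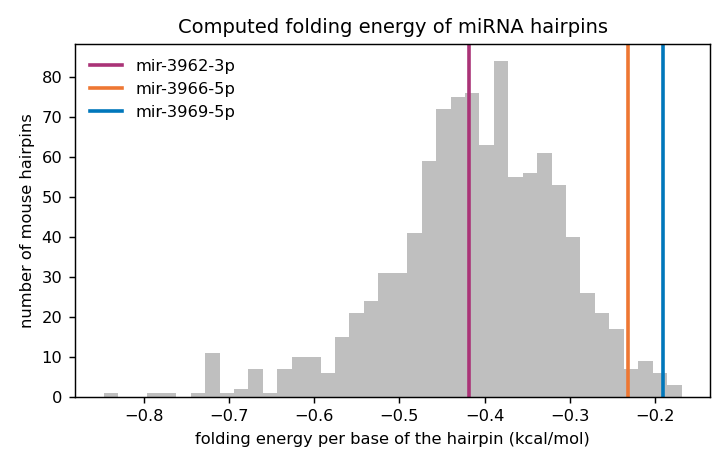
Computed folding energy per base of 1005 mouse miRNA hairpins (x axis, kcal/mol; more negative is more stable) and number of hairpins (y axis), with a vertical line for each of the 3 precursors. The mir-3962 line stands in the middle of the distribution, and the mir-3966 and mir-3969 lines stand at its weak end.

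The 3 precursors are not neighbours in the genome and overlap no other annotated gene. Mir-3962 lies on chromosome 1 (194822001 to 194822064, plus strand, GRCm38), 5.13 kb beyond the end of Plxna2, which encodes a semaphorin receptor. Mir-3966 lies on chromosome 10 (97423478 to 97423562, plus strand), where the nearest gene, at 56.0 kb, is Dcn, which encodes the proteoglycan decorin. Mir-3969 lies on chromosome 5 (87595902 to 87595993, minus strand), 4.31 kb from Sult1e1, which encodes estrogen sulfotransferase. Within 10 kb the annotation lists no other miRNA beside any of them.

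Libraries held between 365634 and 570492 reads on miRNAs, with medians of 442725 in wt, 454326 in AGAT-/- and 464886 in AGAT-/-hArg mice. By total counts, without TMM, 3 reads correspond to between 5.26 and 8.20 CPM. Heart muscle miRNAs (mir-1a, mir-133a, mir-208 and mir-499) had reads on 8 of 14 rows, and their summed level was between 1789 and 2616 CPM in each library. The 3p rows of mir-1a, mir-133a and mir-208 are listed at 0, so the sum holds only their 5p rows and mir-499. Of the red blood cell miRNAs, mir-144-5p was at 2313 to 3773 CPM per library and both mir-451a rows are listed at 0. Mir-486a-5p, of the same list, averaged 3138 CPM in wt and AGAT-/- libraries and 3112 CPM in AGAT-/-hArg libraries. For mir-486b-3p these means were 913 and 933 CPM. Liver-specific mir-122 had 5 reads in all, on its 3p row, while its 5p row is listed at 0.

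Mir-3969-5p had reads at a steady level in every wt and AGAT-/- library. The wt libraries of mice 1 to 5 held 150, 140, 164, 141 and 179 reads. The AGAT-/- libraries of mice 6 to 10 held 131, 175, 161, 195 and 198 reads. Both groups covered nearly the same range. The AGAT-/-hArg libraries of mice 11 to 15 held 0, 7, 4, 5 and 4 reads, far below every other library. The mean level was 358 ± 47.2 CPM in wt, 384 ± 63.9 CPM in AGAT-/-, and 8.39 ± 5.01 CPM in AGAT-/-hArg hearts (SD over 5 mice per group). The AGAT-/-hArg mean was 2.26% of the mean of the other 10 libraries, or 44.2-fold lower. Pooled over libraries, 20 of 2299461 reads on miRNAs stood against 1634 in the other 10 libraries. Per read counted on miRNAs, the share was 2.41% of theirs, with an exact 95% interval of 1.47% to 3.73%. This interval covers counting error only. At the share of the other libraries, the AGAT-/-hArg libraries would have held between 141 and 206 reads each. In bulk tissue, fewer cells of a type and less RNA per cell cannot be told apart.

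Mir-3962-3p had few reads, and none in the AGAT-/-hArg libraries. It had 4, 5, 8, 8 and 3 reads in wt mice 1 to 5, and 0, 4, 7, 9 and 5 reads in AGAT-/- mice 6 to 10. It had 0 reads in each of the 5 AGAT-/-hArg libraries. AGAT-/- mouse 6 was the exception on lane 8, so that the groups overlap at 0. Mean levels were 12.9 ± 5.45 CPM (wt) and 11.3 ± 8.19 CPM (AGAT-/-; SD over 5 mice per group), close to what 3 reads correspond to. With 53 reads in the other 10 libraries, between 4.57 and 6.69 reads would have been found per AGAT-/-hArg library at the same share. Set against 3 reads over the whole AGAT-/-hArg group, mir-3962-3p was at least 8.99-fold lower than in the other 10 libraries pooled. The exact 95% interval of the pooled share, from 0 to 14.2% of that of the other libraries, allows a smaller difference than this floor, and covers counting error only. Of the 177 rows that had reads in wt or AGAT-/- libraries and none in AGAT-/-hArg libraries, mir-3962-3p had the most, and the next, mir-365-2-5p, had 10.

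Mir-3966-5p was lower but far from absent in the AGAT-/-hArg hearts. It had 125, 148, 146, 162 and 138 reads in wt mice 1 to 5, and 110, 185, 115, 141 and 121 reads in AGAT-/- mice 6 to 10. The AGAT-/-hArg mice 11 to 15 had 115, 125, 82, 71 and 118 reads. Raw reads of the groups thus overlap, while the levels after normalization did not. They averaged 334 ± 50.8 CPM in wt, 296 ± 33.5 CPM in AGAT-/-, and 212 ± 27.2 CPM in AGAT-/-hArg hearts (SD over 5 mice per group). The highest AGAT-/-hArg library, at 242 CPM, was just under the lowest of the other 10, at 262 CPM, and with total counts in place of TMM the values were 247 and 258 CPM. The AGAT-/-hArg mean was 67.4% of that of the other 10 libraries, or 1.48-fold lower, and no library was without reads.

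**Figure D2:**
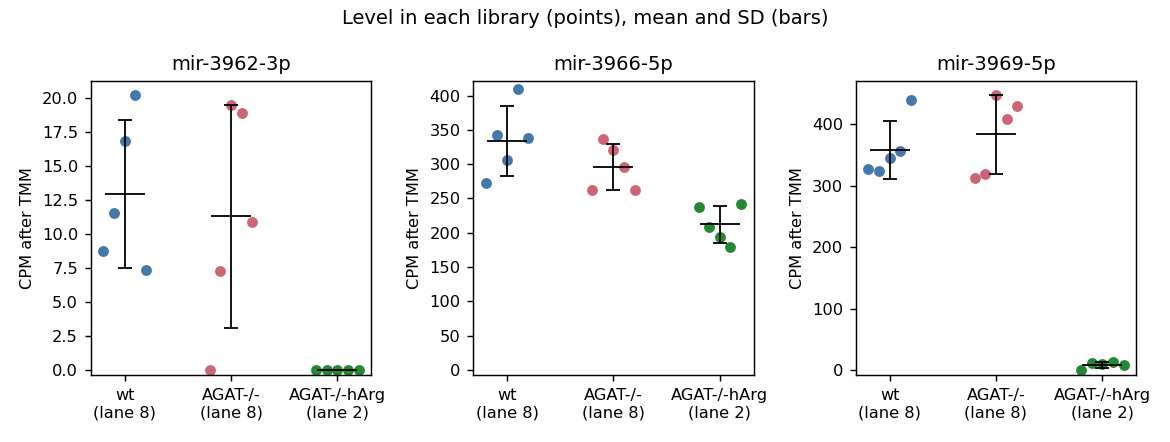
Level of mir-3962-3p, mir-3966-5p and mir-3969-5p (y axis, CPM after TMM, each panel with its own scale) in each of the 15 libraries by group (x axis, with the sequencing lane); points are mice, and bars are the group mean and SD. The wt and AGAT-/- points overlap in each panel, whereas the AGAT-/-hArg points lie at 0 for mir-3962-3p, between 0 and 12.6 CPM for mir-3969-5p, and between 179 and 242 CPM for mir-3966-5p.

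Of 647 rows with more than 10 reads over the 15 libraries, 3 had all AGAT-/-hArg libraries below the 10 others (0.464%), namely mir-3966-5p, mir-3969-5p and mir-101c-3p. In the other direction, 2 rows (0.309%) had all AGAT-/-hArg libraries above the 10 others, namely mir-378b-3p and mir-383-5p. By edgeR's test, 0.69% of 580 rows were called between AGAT-/-hArg and AGAT-/- mice, and 2.99% of 569 rows between AGAT-/-hArg and wt mice. The 3 miRNAs were chosen on these contrasts, and nothing is read from these counts about them.

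Most rows had similar levels on both lanes. Among 236 rows with a mean above 10 reads, the AGAT-/-hArg mean had a median of 99.6% of that of the other 10 libraries, with 74.9% and 128% at the 5th and 95th percentile. Mir-3969-5p had the lowest value of all. It was followed by mir-5119-3p with 7.99%, mir-582-3p with 41.6%, mir-582-5p with 43.2% and mir-1983-3p with 52.8%, and mir-3966-5p stood in place 7. Mir-5119-3p and mir-582-3p were less even over the other 10 libraries than mir-3969-5p. Mir-5119-3p had between 46 and 282 reads in wt, between 1 and 11 in AGAT-/- and between 1 and 18 in AGAT-/-hArg libraries. Mir-1983-3p had between 98 and 195, 59 and 119, and 41 and 97 reads in these groups. Both were called lower in AGAT-/- than in wt mice (log2 fold change -4.91 and -0.98, FDR = 2.08e-05 and 0.00461, edgeR). Their percentages, set against both groups pooled, therefore also hold this difference. Mir-582-3p ranged between 280 and 2862 reads within wt mice alone. For mir-3969-5p all 10 wt and AGAT-/- libraries lay between 131 and 198 reads. At the other end, mir-378b-3p was at 399%, mir-384-5p at 187% and mir-879-5p at 169%. Mir-378b-3p also has a near copy, as it differs from mir-378c at 1 of 20 aligned bases, with 1358340 reads on the mir-378c-5p row over the 15 libraries. Apart from mir-3966-5p and mir-3969-5p, the other lowest and highest rows listed in this paragraph had no miRNA within 2 differences. For mir-101c-3p and mir-383-5p, named above for groups without overlap, the nearest miRNA was not looked up. Mir-5119-3p differed from its nearest miRNA at 5 aligned bases. Mir-582-3p, mir-582-5p, mir-1983-3p, mir-384-5p and mir-879-5p each differed from theirs at 6.

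**Figure D3:**
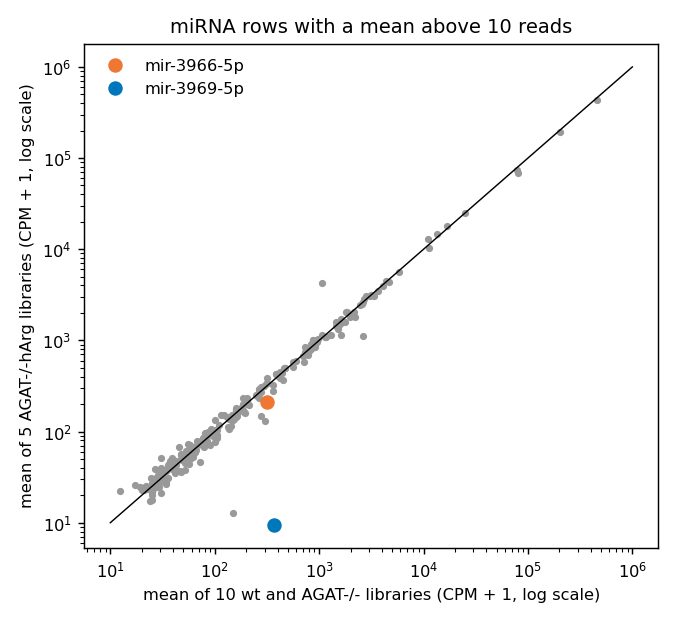
Mean level of 236 miRNA rows with a mean above 10 reads in the 5 AGAT-/-hArg libraries (y axis) against the mean of the 10 wt and AGAT-/- libraries (x axis), both as CPM + 1 on log scales, with the line of equal levels. Mir-3969-5p stands far below the line, at 2.26% of the other libraries, and mir-3966-5p stands just below it.

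The comparison of AGAT-/- with wt mice, both on lane 8, addressed whether loss of AGAT itself went with a change of these miRNAs. None of the 3 passed the test. Of 562 rows tested with edgeR's quasi-likelihood test, 12 (2.14%) were called at an FDR of at most 0.05. Of the 3 miRNAs, 0 were called and 0 had an unadjusted p below 0.05, which 60 of the 562 rows had. DESeq2 called 14 rows, and 0 of the 3. With only 3 rows, counts of 0 are near these shares and nothing is read from them. The wt and AGAT-/- mice overlapped for each of the 3, while 3.38% of the 562 rows had groups without overlap. The log2 fold change in AGAT-/- mice was 0.08 for mir-3969-5p (standard error 0.13, FDR = 0.939, edgeR), with a 95% interval of about -0.18 to 0.34. For mir-3966-5p it was -0.20 (standard error 0.12, FDR = 0.611, edgeR), with an interval of -0.44 to 0.05. For mir-3962-3p it was -0.24 (standard error 0.50, FDR = 0.968, edgeR), and the interval of -1.21 to 0.74 leaves changes of more than 1 on the log2 scale in reach. The sign for mir-3962-3p rested on AGAT-/- mouse 6, the library without reads, as it was 0.11 without this mouse. Between AGAT-/- and wt libraries the order of levels was therefore not resolved for any of the 3.

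**Figure D4:**
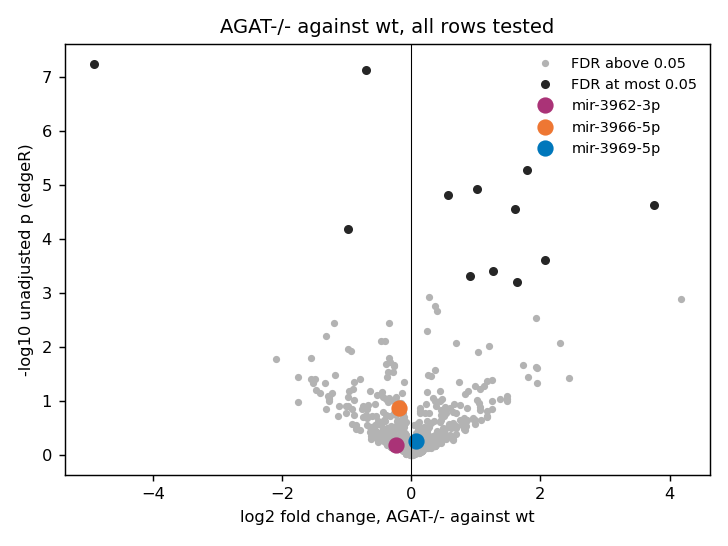
Log2 fold change of AGAT-/- against wt mice (x axis) and -log10 of the unadjusted p of edgeR's test (y axis) for 562 miRNA rows; dark points are the 12 rows at an FDR of at most 0.05. The 3 miRNAs studied here lie among the rows that were not called, near a fold change of 0.

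Among the wt and AGAT-/- hearts, mir-3969-5p and mir-3966-5p were of similar abundance, with means of 371 and 315 CPM and places 76 and 80 by mean level among the 1094 rows with reads there. Mir-3962-3p, at 12.1 CPM, was in place 284. Read counts of different miRNAs also depend on how well each sequence is ligated and amplified, which was not measured. Over these 10 mice the levels varied with a coefficient of variation of 14.7% for mir-3969-5p and 14.4% for mir-3966-5p, where counting error alone gives 7.82% and 8.48%. For mir-3962-3p it was 54.6%, and counting error gives 43.4%. The wt mice varied by 42.1% in mir-3962-3p, where counting error gives 42.3%, so that a difference between wt mice was not detectable at this depth.

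The miRNAs did not vary as a unit among the lane 8 mice. Over the 10 wt and AGAT-/- libraries, Pearson's r of log2 CPM was 0.01 between mir-3966-5p and mir-3969-5p, 0.48 between mir-3962-3p and mir-3966-5p, and 0.45 between mir-3962-3p and mir-3969-5p. The rows most like mir-3969-5p there were mir-466c-1-5p (r = 0.78), mir-690-3p (0.76) and mir-6395-5p (0.69), which held between 12 and 24 reads in all 15 libraries. For mir-3962-3p they were mir-1954-5p (0.89), mir-1231-3p (0.84) and mir-7083-3p (0.78). For mir-3966-5p they were mir-6968-3p (0.85), mir-30c-2-3p (0.84) and mir-378d-5p (0.84). These are the highest of many values on 10 points that share depth and normalization, and most of the rows are at few reads.

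Over all 15 libraries the rows most like mir-3969-5p were mir-101c-3p (r = 0.89), mir-3962-3p (0.83) and mir-3966-5p (0.76). For mir-3962-3p they were mir-3969-5p (0.83), mir-3966-5p (0.82) and mir-5113-5p (0.72), and for mir-3966-5p they were mir-378d-5p (0.83), mir-3962-3p (0.82) and mir-378a-3p (0.77). The AGAT-/-hArg libraries set these values among the 3 miRNAs, which were chosen for being low there.

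Other miRNAs of neighbouring number with more than a few reads did not have such low AGAT-/-hArg values. The deposited counts list 22 rows numbered between mir-3960 and mir-3974, of which 16 belong to other precursors and 8 of these had reads. Only mir-3968-3p, mir-3964-3p and mir-3970-5p had enough reads to be tested between AGAT-/- and wt mice, and 0 were called by edgeR. Mir-3968-3p averaged 737 ± 132 CPM in wt, 715 ± 24.8 CPM in AGAT-/-, and 842 ± 127 CPM in AGAT-/-hArg hearts (SD over 5 mice per group). Its AGAT-/-hArg libraries held between 245 and 528 reads, and the other 10 held between 264 and 385. Mir-3964-3p, at 42 reads in all, was found in every AGAT-/-hArg library with between 1 and 6 reads, and mir-3970-5p, at 47 reads in all, likewise with between 1 and 6 reads.

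Further near copies with a shifted 5′ end, looked for after the sequences were seen, were found in this range of numbers. Of 10 mature miRNAs of these numbers in RefSeq, 5 were within 2 differences of another miRNA, and in each of the 5 the start was shifted. Besides mir-3962, mir-3966 and mir-3969, these were mir-3965 and mir-3967. Both were nearest to mir-21a-5p, a miRNA known to rise in injured hearts, which had 1242 reads in all. Mir-3965-3p had 3 reads and mir-3967-3p 1 read, all in wt or AGAT-/- libraries, which is too few to tell whether either differs in AGAT-/-hArg libraries. Mir-3964 was nearest to mir-142a-5p, as mir-3969 was, with 3 differences over 20 bases, and its reads were not missing from the AGAT-/-hArg libraries.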

How the data were processed

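MiRNA of left ventricular (LV) tissue was sequenced from 15 mice, with one library per mouse. Reads were mapped by the authors to the mouse miRNAs of miRBase, using the CLC Genomics Workbench, and the deposited values are raw counts of reads per mature miRNA. The releases, the mismatches allowed and the handling of reads that match several miRNAs are not given in the sources used here. All rows were kept for library totals. Counts were normalized by TMM in edgeR 4.0.16 (R 4.3.3) and are given as CPM (reads scaled to a common normalized library size), with a prior count of 1 for log2 CPM. AGAT-/- mice were compared with wt mice by glmQLFit and glmQLFTest over every row whose sum in the 10 libraries was above 10 reads, and differences at a Benjamini-Hochberg FDR of at most 0.05 were called. The members and all lists were chosen with earlier results of these data known, and they were chosen partly for low values in the AGAT-/-hArg libraries, so those values carry no test. Further rows were named if they had the most similar log2 CPM, the largest change in AGAT-/-hArg libraries, a neighbouring number (mir-3960 to mir-3974), a shared seed or a shared run of at least 12 bases. The ungapped alignment of mature sequences over at least 18 bases was added after the sequences were seen. Sequences are from RefSeq (GRCm38.p6), genes from GENCODE M21 (GRCm38, the build that the labels name), and hairpins were folded with RNAfold 2.7.2. Counting intervals were computed with scipy 1.17.1 in Python 3.11.15. Alternatives were DESeq2 1.42.0, other scalings and filters, 1 fit of all libraries, and leaving out each mouse. In simulated AGAT-/- against wt data of 562 rows, of which 190 changed by 2-fold, edgeR called 56.3% of the changed rows and, among the 81 whose mean exceeded 10 reads, 93.8%. Every simulated row had the same preset variation between mice, which was not estimated from these data. Recovery in rows that vary more was not tested.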

Additional observations from a re-analysis of the deposited data

Results flagged for a closer look

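The wt level of mir-3969-5p was 439 CPM in mouse 5 and between 324 and 357 CPM in mice 1 to 4, and the gap from mouse 5 to the next mouse was 0.716 of the whole wt range, just above the 95% critical value for 5 samples. Among the 8 groups tested in this way, 1 was singled out. Chance gives about 1 in 20 for each group, so 1 among 8 groups is not read as more than chance.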

How the results depend on the processing

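Depth limits mir-3962-3p most, since 3 reads correspond to between 5.26 and 8.20 CPM by total counts. Its mean was 12.1 CPM after TMM in wt and AGAT-/- mice. The AGAT-/-hArg mean as a share of the other 10 libraries stayed between 1.98 and 2.83% for mir-3969-5p and between 65.1 and 71.7% for mir-3966-5p over all scalings and with each mouse left out, and at 0 for mir-3962-3p. None of the 3 was called between AGAT-/- and wt mice in any alternative. The log2 fold change was between -0.50 and 0.11 for mir-3962-3p, between -0.26 and -0.10 for mir-3966-5p and between 0.03 and 0.21 for mir-3969-5p with each mouse left out. It was above 0 for mir-3962-3p only without AGAT-/- mouse 6 (0.11). With edgeR's filterByExpr, mir-3962-3p was not tested. Rows called numbered between 8 and 17 for AGAT-/- against wt, between 3 and 6 for AGAT-/-hArg against AGAT-/-, and between 10 and 20 for AGAT-/-hArg against wt mice with each mouse left out (11 without wt mouse 5 and 10 without AGAT-/-hArg mouse 15). With all rows of at least 1 read tested, 8 in place of 4 were called against AGAT-/- and 28 in place of 17 against wt mice; the cause was not tested. No paired analysis was possible because the labels give each mouse its own number.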
